A study of Homo sapiens with 30 samples.

Results

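The genes described here are the integrated stress response and amino acid synthesis genes of LOUCY cells, an established human cell line of early T cell precursor leukemia (ETP-ALL), read on Affymetrix HG U133 Plus 2.0 arrays. They were chosen by name, as a list of 37 genes of the ATF4 pathway. Each gene is given by 1 probe set, the one with the highest mean over all 30 arrays among probe sets that carry its symbol alone. By this rule 36 of the 37 genes were measured, out of 19775 genes on the array. The gene without such a probe set is GPT2, an alanine aminotransferase.

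The study profiled 10 conditions with 3 arrays each. The M_DL1+ and M_DL1- arrays hold the line with a dox-inducible MEF2C construct grown on OP9-DL1 stroma, with and without dox (doxycycline). M_GFP+ and M_GFP- are the same line on OP9-GFP stroma, and M+ and M- the same line in medium alone. M_ICN+ and M_ICN- are a line that carries constructs for both MEF2C and ICN, the intracellular part of NOTCH1, with and without dox, and ICN+ and ICN- are a line with the ICN construct only. The OP9 cells are stroma from mouse bone marrow, and those called OP9-DL1 carry the Notch ligand Delta-like 1 on their surface. LOUCY cells were modified by lentiviral transduction and flow sorting, and the MEF2C line is described as a bulk line. The sources used here do not say whether the 2 lines with ICN are bulk lines or clones. The MEF2C construct is codon optimized and lacks the β domain of the transactivation region. The labels name stroma for M_DL1 and M_GFP only, and the other conditions are taken here as grown in medium alone. No line without an inducible construct was given dox, so dox itself and the induced protein cannot be told apart. Nothing in the sources used here says that the 3 arrays of a condition come from separate cultures, so the p-values measure the spread between arrays, which may be technical.

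In the integrated stress response, kinases that sense lack of amino acids, misfolded protein in the endoplasmic reticulum, heme shortage or viral RNA phosphorylate the translation factor eIF2. General translation falls, while the mRNA of the transcription factor ATF4 is translated more. ATF4 is therefore controlled to a large part at the protein level, which arrays do not read, and its activity is commonly read from its targets. These include enzymes and transporters that supply amino acids, charged tRNA and one-carbon units, and feedback genes that restore translation or, as DDIT3 (CHOP) does, promote cell death. Many lymphoid leukemias are known to depend on asparagine from outside the cell, the amino acid that ASNS makes.

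ATF4 binds DNA with C/EBP partners at a composite element, and the list was searched for its letters, TGATGNAAN on either strand, in the promoter sequences of RefSeq (GRCh38.p14, 250 bases before to 50 after each gene start). Promoters were found for 29 of the 37 genes, and 9 of these 29 genes (31.0%) held a match, against 4.45% of all genes in the table. Counted by promoter, 9 of 45 promoters of these genes held one, against 3.61% of 35116 promoters. The genes were chosen as members of the ATF4 pathway, so their higher share is a description and not a test. A match describes the letters and is not evidence of binding, and a promoter without one says nothing about the factor. The stretches of 5 genes that moved in the comparisons below are shown for their matches, which stand in capitals, 5′ to 3′ on the strand of the gene.
ASNS (chr7:97872443-97872501, minus strand): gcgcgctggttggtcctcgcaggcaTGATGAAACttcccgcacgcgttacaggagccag
ATF3 (chr1:212565191-212565249, plus strand): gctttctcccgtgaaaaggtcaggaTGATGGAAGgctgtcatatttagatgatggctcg
CEBPG (chr19:33374046-33374104, plus strand): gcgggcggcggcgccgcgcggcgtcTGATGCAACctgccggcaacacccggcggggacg
HERPUD1 (chr16:56931940-56931998, plus strand): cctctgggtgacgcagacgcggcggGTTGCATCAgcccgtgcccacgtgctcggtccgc
JDP2 (chr14:75427981-75428021, plus strand): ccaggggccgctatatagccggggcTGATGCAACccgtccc

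Counted in bases from the gene start, the match spans -68 to -60 in ASNS, -42 to -34 in CEBPG, -16 to -8 in JDP2 and -191 to -183 in ATF3. In HERPUD1 it is read on the opposite strand, at -177 to -169. CHAC1 and FGF21 also held a match before the start, and SLC3A2 and SLC7A1 held one after it.

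The values are log2 levels after robust multiarray averaging (RMA), which sets all arrays to a common distribution, so levels can be compared between arrays for 1 gene but not between genes. Within a condition the arrays correlated between 0.990 and 0.998. A gene is said to rise or fall where its adjusted p was under 0.05 (limma, Benjamini-Hochberg over 54613 probe sets). LOUCY markers were checked over 9 genes, and their mean level per array lay between 8.88 and 9.93 over the 10 conditions. A legend of the study places most MEF2C probe sets outside the cloned sequence, where they read the endogenous gene, and says that another one covers the construct as well, without naming the probe sets in its text. With dox in medium, 1 MEF2C probe set rose by 0.53 and the other 2 fell by 1.08 and 1.04. With dox in the ICN line, the Notch targets HEY1 and DTX1 rose by 4.96 and 2.31, and 1 of 2 NOTCH1 probe sets rose by 0.56 and the other had a difference of 0.01.

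The genes of the list stood highest in the MEF2C line in medium. Of the 36 genes, 23 had their highest mean level in M- and 3 in M+. The share of all genes with their highest mean there was not counted. Among the 24 listed genes with a mean of at least 7, 22 had their highest mean in M- or M+. For the 9 genes with a mean under 5, the highest group may reflect background. The median over the list of each group mean, taken relative to the gene's own mean over the 10 groups, was 0.62 in M- and 0.49 in M+ on the log2 scale. It was 0.08 in ICN- and lay between -0.22 in M_DL1+ and -0.14 in M_ICN+ in the 7 other groups. The same median over all 19775 genes lay between -0.05 and 0.03 in every group. For 22 of the 36 genes the lowest of the 6 M- and M+ arrays was above the highest of the 24 other arrays, which was so for 2.73% of all genes. This last count was chosen after the values were seen and is a description only. The sources used here do not give the days on which the groups were grown, and the line, its culture and the time of growth cannot be told apart for these 6 arrays.

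**Figure D1:**
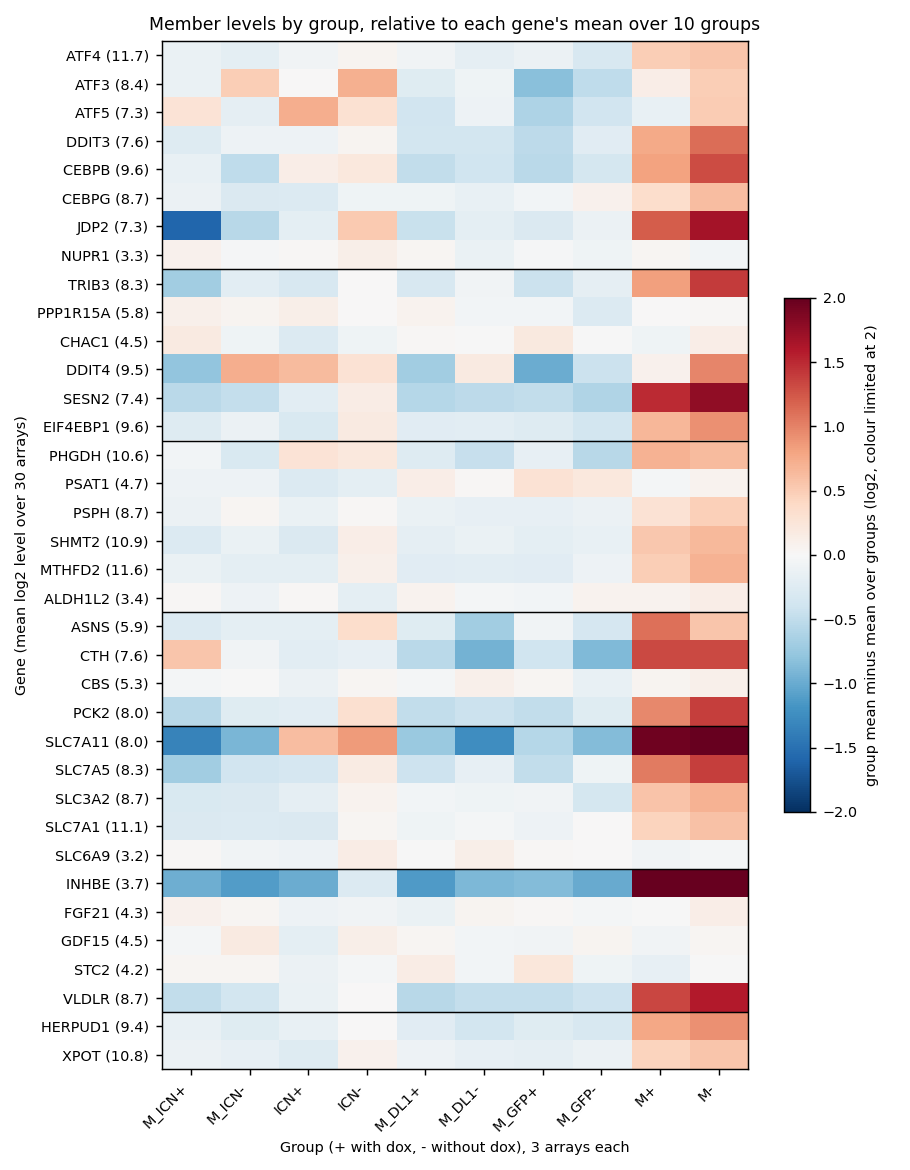
Group mean of each of the 36 genes minus its mean over the 10 groups (log2, colour limited at 2), with groups on the horizontal axis and genes by role on the vertical axis. The columns M+ and M- on the right are red for most genes, as 26 of 36 genes had their highest mean in one of them, while INHBE and SLC7A11 show a wide range.

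The first question is how the MEF2C line on OP9-GFP stroma differed from the same line in medium alone. Its medium arrays, M- and M+, are those that stood highest. The relative median given above was -0.20 in M_GFP- and -0.19 in M_GFP+. In other lines in medium it was -0.17 in M_ICN-, -0.14 in M_ICN+, -0.16 in ICN+ and 0.08 in ICN-. Whether the differences below belong to the stroma or to the M- and M+ arrays was not tested. Without dox, 27 of 36 genes fell and 0 rose on OP9-GFP, against 11.5% of all genes lower and 10.8% higher, and the median change of the list was -0.89, against -0.01 over all genes. With dox, 26 fell and 1 rose, against 13% lower and 7.64% higher, with a median of -0.73. The lower genes covered every role: transcription factors, growth control, serine and one-carbon enzymes, transporters, secreted factors and export of tRNA. The count without dox includes PPP1R15A, the phosphatase subunit that reverses eIF2 phosphorylation, with a change of -0.29 that did not hold without M- replicate 3 or M_GFP- replicate 2 (adjusted p up to 0.092).

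Among the transcription factors, ATF4 itself had levels of 11.43, 11.26 and 11.42 in M_GFP- against 12.21, 12.19 and 12.35 in M-, a change of -0.88 (adjusted p = 2.9e-11). With dox they were 11.58, 11.61 and 11.54 in M_GFP+ against 12.20, 12.15 and 12.18 in M+, and the change was -0.60. The groups did not overlap in either comparison. CEBPB, a C/EBP partner of ATF4, had 9.28, 9.30 and 9.25 in M_GFP- against 10.89, 10.94 and 10.97 in M- and fell by 1.65 (adjusted p = 7.1e-17). JDP2, an AP-1 family repressor, had 7.29, 6.93 and 7.19 in M_GFP- against 8.91, 8.98 and 8.84 in M- and fell by 1.77. Both sets of arrays were well apart, with no JDP2 value in M_GFP- above 7.29. ATF3, a stress-induced repressor, had 8.05, 7.86 and 7.87 in M_GFP- against 8.89, 8.97 and 8.91 in M- (change -1.0), and ATF5, a factor of the mitochondrial stress response, had 7.02, 6.65 and 7.02 in M_GFP- against 7.52, 7.87 and 7.98 in M- (change -0.89). DDIT3 averaged 7.33 ± 0.01 in M_GFP- and 8.67 ± 0.03 in M- (SD, n = 3 each), and fell by 1.34. CEBPG, the C/EBP partner of ATF4 in amino acid lack, fell by 0.52. NUPR1 had a difference of -0.03 that did not pass.

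Feedback and growth control genes fell on OP9-GFP in 5 of 6 cases without dox and 4 of 6 with dox. TRIB3, a pseudokinase that inhibits ATF4 and AKT, had 8.17, 8.16 and 8.16 in M_GFP- against 9.63, 9.81 and 9.76 in M- and fell by 1.57 (adjusted p = 9.4e-14). EIF4EBP1, which holds back cap-dependent translation, had 9.30, 9.03 and 9.29 in M_GFP- against 10.47, 10.41 and 10.59 in M- and fell by 1.29. DDIT4 (REDD1), an inhibitor of mTORC1, had 9.22, 8.85 and 9.18 in M_GFP- against 10.48, 10.47 and 10.55 in M- and fell by 1.42. SESN2, a leucine sensor that also restrains mTORC1, averaged 6.76 ± 0.13 in M_GFP- and 9.14 ± 0.23 in M- (SD, n = 3 each) and fell by 2.38. In all 4 genes the arrays of the groups lay apart.

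The enzymes of serine synthesis and the one-carbon cycle moved less in size. MTHFD2, the mitochondrial folate enzyme, had 11.49, 11.56 and 11.41 in M_GFP- against 12.35, 12.27 and 12.25 in M- and fell by 0.80 (adjusted p = 3.0e-09). PHGDH, which opens serine synthesis, fell by 1.18, PSPH, which closes it, by 0.60, and SHMT2, which passes the serine carbon to folate, by 0.79. PSAT1, the middle step, and ALDH1L2, which oxidizes formyl folate, had means under 5 and did not pass, at 0.15 and -0.06. Of the other amino acid enzymes, CTH, which makes cysteine from cystathionine, had 6.72, 6.92 and 6.50 in M_GFP- against 8.89, 8.94 and 8.90 in M- and fell by 2.20. PCK2, mitochondrial PEP carboxykinase, had 7.70, 7.82 and 7.64 in M_GFP- against 9.18, 9.34 and 9.48 in M- and fell by 1.61. ASNS had 5.52, 5.65 and 5.58 in M_GFP- against 6.31, 6.48 and 6.66 in M- and fell by 0.90. CBS, the enzyme before CTH, did not pass (-0.25).

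A transporter and a secreted factor moved further. SLC7A11, the cystine importer xCT, had 7.24, 7.38 and 6.90 in M_GFP- against 10.24, 10.31 and 10.36 in M- and fell by 3.13 (SE 0.09, adjusted p = 7.0e-18). Its 2 other probe sets fell as well, with changes of -1.17 and -2.85. INHBE, the inhibin beta E chain, had 2.45, 3.05 and 2.48 in M_GFP- against 7.37, 7.70 and 7.53 in M- and fell (adjusted p = 1.7e-15). In the 8 groups other than M- and M+ the INHBE arrays lay between 2.41 and 3.73, near the bottom of the scale, whose lowest value on any array was 1.40. The values used here carry no detection calls, so the level of INHBE in these 8 groups may be background, and the size of its log2 difference (-4.88) depends on that background and is not ranked with the others. SLC7A5, the leucine importer LAT1, had 8.23, 8.17 and 8.13 in M_GFP- against 9.49, 9.59 and 9.83 in M- and fell by 1.46, while its partner chain SLC3A2 fell by 1.04. SLC7A1, the arginine importer CAT1, fell by 0.57 without dox, and with dox it had 10.97, 11.02 and 10.98 in M_GFP+ against 11.44, 11.60 and 11.54 in M+ and fell by 0.54. VLDLR, the lipoprotein receptor, had 8.33, 8.45 and 7.94 in M_GFP- against 10.16, 10.30 and 10.27 in M- and fell by 2.0. XPOT, which exports tRNA, had 10.68, 10.78 and 10.65 in M_GFP- against 11.33, 11.46 and 11.29 in M- and fell by 0.66, and HERPUD1, a gene of protein degradation at the endoplasmic reticulum, fell by 1.23.

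With dox present, the same comparison of OP9-GFP and medium gave -2.53 for SLC7A11, -1.99 for SESN2, -1.81 for VLDLR and -1.72 for CTH. The 1 gene that rose was STC2, a secreted glycoprotein of low level (0.39), and that call was lost without M+ replicate 3, M_GFP+ replicate 2 or M_GFP+ replicate 3 (adjusted p up to 0.16). Of 25 other probe sets of the 27 genes that fell without dox, 14 fell as well, 0 rose and 11 did not pass, 8 of these 11 with a mean under 5.

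Cell makeup was checked beside these falls. Of 14 stromal genes, which human probes could read only in part from mouse RNA, 2 rose and 2 fell without dox, and their mean level per array was 4.81 to 4.97 in M_GFP- against 4.75 to 4.90 in M-. Of the 9 LOUCY markers, 1 rose and 3 fell, with a mean level of 9.56 to 9.63 in M_GFP- against 9.65 to 9.71 in M-. In bulk RNA a change in the makeup of the cells and a change within each cell cannot be told apart. The part of either list in the result was not tested.

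**Figure D2:**
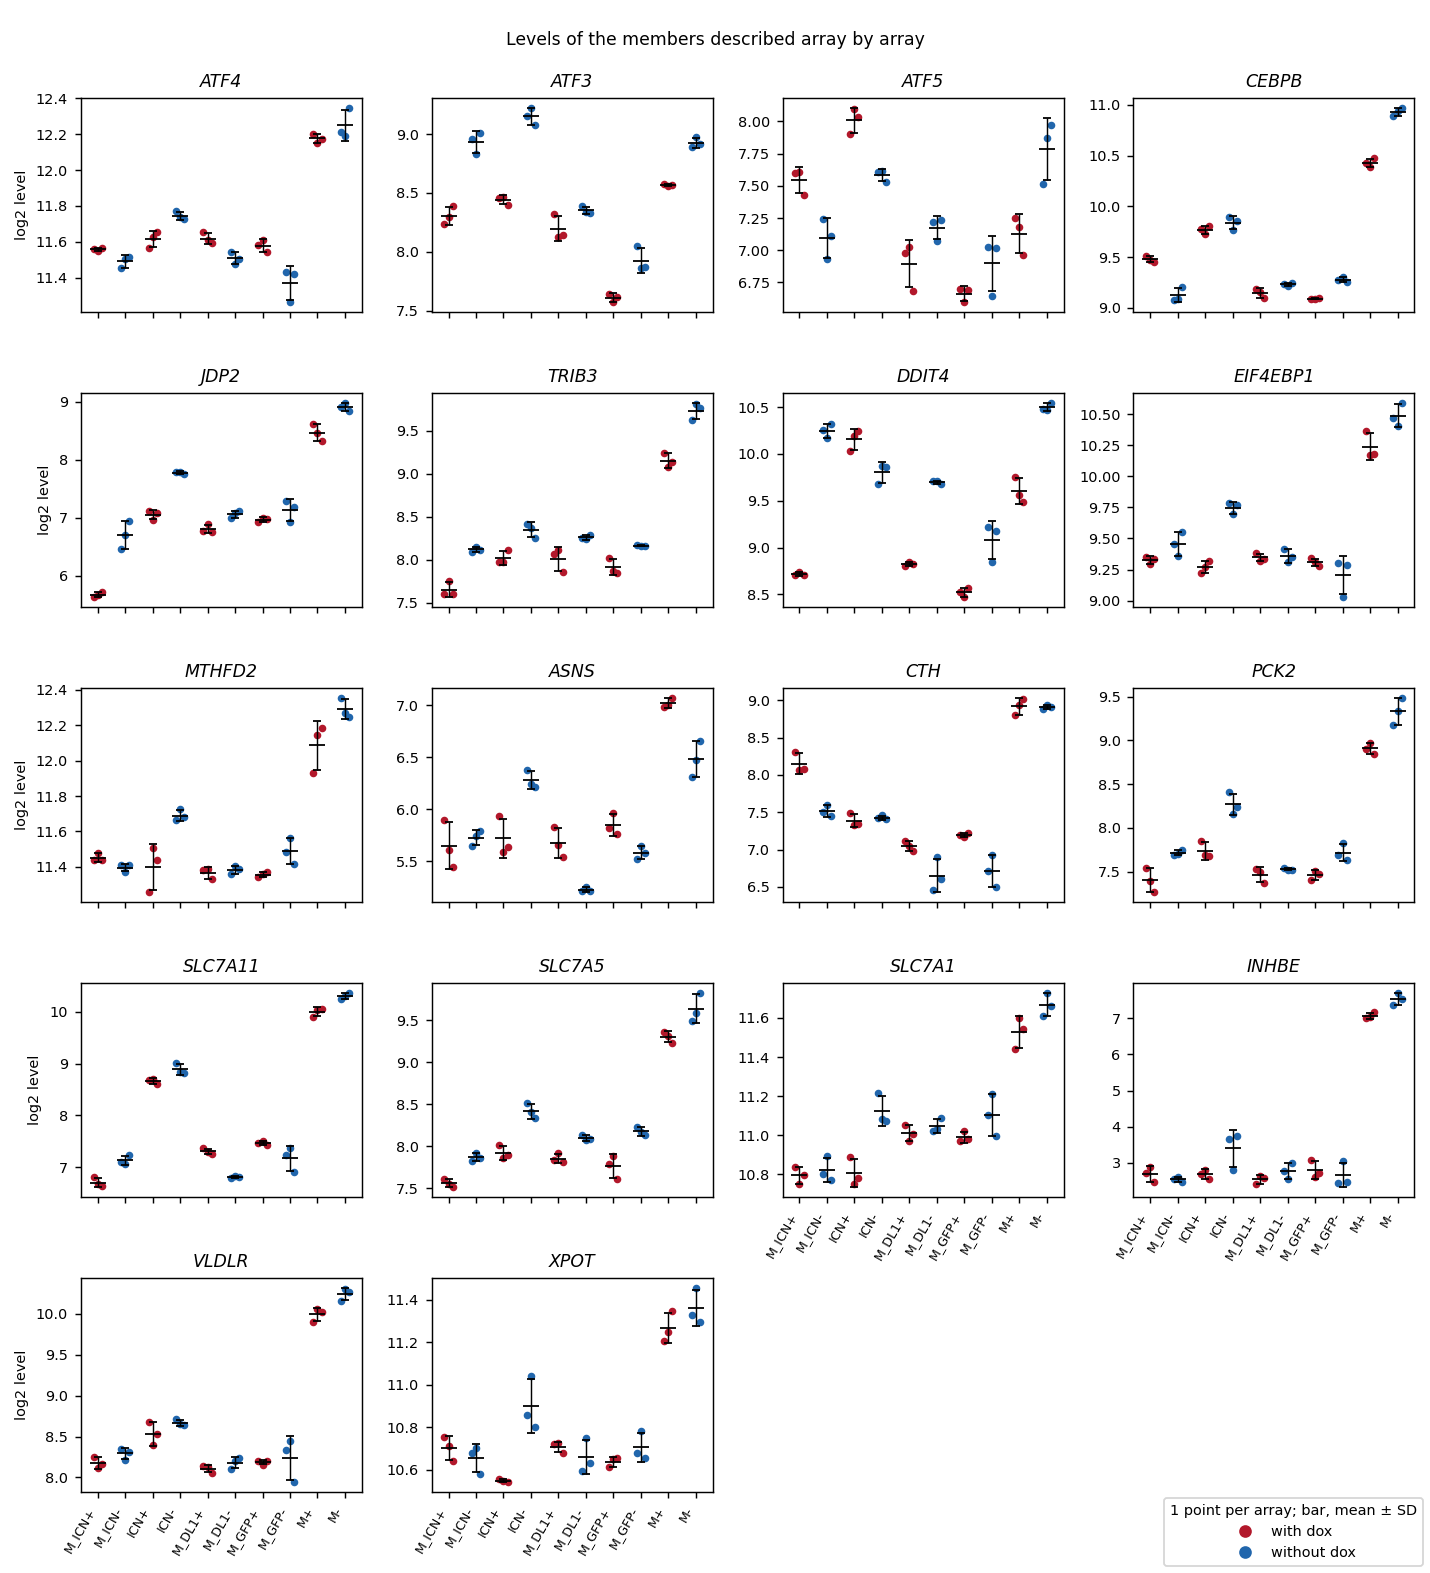
Log2 level of each array in the genes described array by array, with the 10 groups on the horizontal axis and the mean ± SD of 3 arrays as a bar. In SLC7A11 the 3 M- arrays are 10.24, 10.31 and 10.36 and the 3 M_GFP- arrays 7.24, 7.38 and 6.90, while in DDIT4 the 3 M_ICN+ arrays are 8.71, 8.74 and 8.71 and the 3 M_ICN- arrays 10.25, 10.17 and 10.32.

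Other genes of the pathway, outside the list, fell with it in part. Of 17 aminoacyl-tRNA synthetases measured, which charge tRNA with amino acids and several of which are ATF4 targets, 11 fell and 2 rose on OP9-GFP without dox (median -0.51), and 11 fell and 0 rose with dox. CARS1, GARS1 and AARS1 fell most without dox, by 1.28, 1.19 and 1.16, and HARS1 and RARS1 rose, by 0.25 and 0.32. Of 12 further amino acid transporters and sensors, 6 fell and 2 rose, led by SLC1A5, SLC1A4 and SLC43A1 with falls of 1.10, 0.93 and 0.83. The 17 genes of the eIF2 kinases, eIF2 and eIF2B had 4 falls and 3 rises and a median of -0.03. Among them OMA1, the mitochondrial protease upstream of the HRI kinase, fell by 0.66. Of 11 folate and methionine cycle genes 0 fell and 3 rose, by 0.39 for SLC25A32, 0.24 for MAT2A and 0.21 for MTR. The ATF6 and XBP1 arms of the unfolded protein response had 6 falls and 3 rises among 18 genes, led by DNAJB9 (-0.51), XBP1 (-0.45) and EDEM1 (-0.43). Of 10 p53 targets 1 fell and 2 rose. Beside these counts, 11.5% of all genes were lower and 10.8% higher.

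The next comparison asks what the Notch ligand on the stroma added, OP9-DL1 against OP9-GFP. Without dox 2 genes rose and 1 fell, against 1.02% of all genes higher and 0.612% lower, and the median of the list was -0.04. With dox 1 gene rose and 0 fell, against 0.92% higher and 0.48% lower. For the 0, limma gave 2 genes at an unadjusted p under 0.05, both directions counted, and the methods' t-test 6. ATF3 rose in both, with 8.39, 8.34 and 8.33 in M_DL1- against 8.05, 7.86 and 7.87 in M_GFP- (change 0.43, adjusted p = 0.00037) and 8.32, 8.13 and 8.14 in M_DL1+ against 7.64, 7.57 and 7.61 in M_GFP+ (change 0.59, adjusted p = 3.4e-06). DDIT4 had 9.71, 9.71 and 9.68 in M_DL1- against 9.22, 8.85 and 9.18 in M_GFP- and rose by 0.62 (adjusted p = 5.6e-05), and with dox it had 8.80, 8.85 and 8.82 in M_DL1+ against 8.53, 8.47 and 8.57 in M_GFP+, a change of 0.30 with an adjusted p of 0.080. SLC7A11 fell without dox, with 6.79, 6.82 and 6.82 in M_DL1- against 7.24, 7.38 and 6.90 in M_GFP- (-0.36), and the call was lost without any 1 of 5 of the 6 arrays, M_GFP- replicate 3 being the exception (adjusted p up to 0.23). ATF4 differed by 0.14 without dox and 0.04 with dox, neither past the threshold. The Notch target HES1 rose by 1.89 without dox, to a mean of 9.34 in M_DL1- from 7.45 in M_GFP-. It was thus higher on OP9-GFP than in M-, where its mean was 5.59. With dox it had 5.26 in M+, 5.64 in M_GFP+ and 8.83 in M_DL1+.

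**Figure D3:**
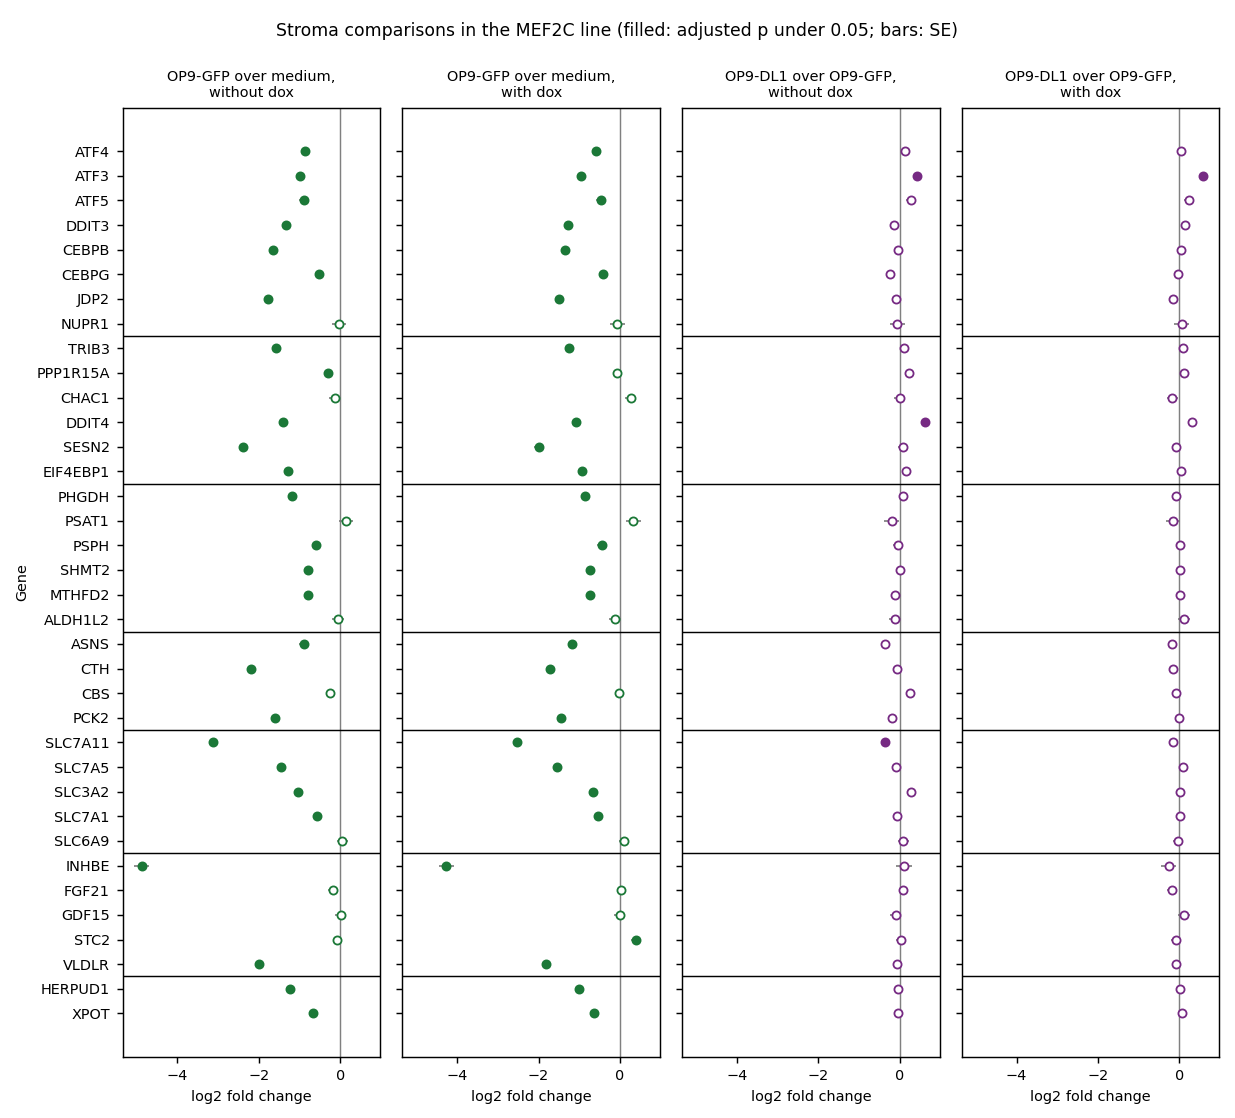
Log2 fold change ± SE of the 36 genes in the 4 stroma comparisons of the MEF2C line, genes on the vertical axis and filled points for an adjusted p under 0.05. In the 2 left panels 27 and 26 genes lie at a fall past the threshold, and in the 2 right panels 3 genes and 1 gene pass. INHBE lies furthest left in the 2 left panels, with its lower group near the bottom of the scale.

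Lines were compared in medium. The ICN line without dox, set against the MEF2C line without dox, had 23 genes lower and 1 higher, against 12.3% of all genes lower and 12.9% higher, and a median of -0.53. The line with both constructs had 25 lower and 0 higher without dox, against 11.9% lower and 12% higher (median -0.81), and 25 lower and 1 higher with dox, against 18% lower and 11.9% higher (median -0.74). The comparisons without dox share the M- arrays with each other and with the stroma comparison, so their likeness is not independent, and the construct and the history of a line cannot be told apart. The Notch target HES1 was already high in both lines with ICN before dox. It had a mean level of 10.19 in ICN- and 9.34 in M_ICN-, against 5.59 in M- (changes of 4.61 and 3.75), and of 9 genes that check the constructs and Notch 5 were higher and 0 lower in ICN- against M-, HEY1 (2.07) and DTX1 (1.55) among them. The lines without dox thus differ in Notch target level too, and its part in these counts was not tested.

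INHBE had 2.56, 2.61 and 2.47 in M_ICN- and 3.67, 2.81 and 3.73 in ICN-, against 7.37, 7.70 and 7.53 in M-, and was lower in both lines, again with its lower groups near the bottom of the scale. SLC7A11 had 7.11, 7.07 and 7.24 in M_ICN- and 9.02, 8.84 and 8.82 in ICN-, against 10.24, 10.31 and 10.36 in M-, with changes of -3.17 and -1.41. The ICN line thus stood between the other 2 lines in SLC7A11, with no overlap of arrays. JDP2 had 6.46, 6.71 and 6.94 in M_ICN- and 7.80, 7.78 and 7.75 in ICN-, against 8.91, 8.98 and 8.84 in M-, with changes of -2.21 and -1.14. CEBPB had 9.08, 9.09 and 9.21 in M_ICN- and 9.90, 9.77 and 9.86 in ICN-, against 10.89, 10.94 and 10.97 in M-, and its changes were -1.81 and -1.09. It too had its lowest arrays in M_ICN- and its middle ones in ICN-. ATF4 had 11.45, 11.51 and 11.52 in M_ICN- and 11.77, 11.74 and 11.72 in ICN-, against 12.21, 12.19 and 12.35 in M-, with changes of -0.76 and -0.50. ATF3 went the other way in the ICN line, at 9.15, 9.22 and 9.08 in ICN- and 8.95, 8.83 and 9.01 in M_ICN- against 8.89, 8.97 and 8.91 in M-, a rise of 0.23 (adjusted p = 0.015) and a difference of 0.00 that did not pass. The rise was lost without M- replicate 1 or ICN- replicate 2 (adjusted p up to 0.084).

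With dox, the line with both constructs stood below the MEF2C line in INHBE, whose M_ICN+ arrays are near the bottom of the scale, and among the other genes by most in SLC7A11 (-3.29), JDP2 (-2.79), SESN2 (-2.04) and VLDLR (-1.82). ATF5 was the 1 gene above it (0.42), and this call was lost without M+ replicate 3 (adjusted p = 0.067). HERPUD1 fell by 0.93 there, while a second probe set of it, with a mean of 5.39, rose by 0.31.

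Set against the ICN line, the line with both constructs had 21 genes lower and 1 higher without dox, against 5.15% of all genes lower and 3.73% higher, and a median of -0.25. The 21 include INHBE, near the bottom of the scale in both groups and not read as a change. The 22 calls became 15 to 20 without single arrays. CEBPG was lost without any 1 of 5 of the 6 arrays, and ATF3 and SLC3A2 without any 1 of 4. EIF4EBP1 and XPOT were lost without either of 2 arrays, and ATF5, HERPUD1, SHMT2 and VLDLR without 1 (adjusted p up to 0.23). The largest fall was that of SLC7A11 (-1.75), and DDIT4 was the 1 gene that was higher (0.44). With dox 11 were lower and 2 higher, against 12.5% lower and 10.5% higher. The list median with dox was -0.01, against 0.04 over all genes, and 16 of 36 genes lay above 0. SLC7A11 had 6.81, 6.68 and 6.63 in M_ICN+ against 8.69, 8.70 and 8.61 in ICN+ (change -1.96), and JDP2 had 5.62, 5.67 and 5.72 in M_ICN+ against 7.11, 6.96 and 7.09 in ICN+ (change -1.38). CTH was higher, with 8.31, 8.06 and 8.07 in M_ICN+ against 7.49, 7.33 and 7.34 in ICN+ (change 0.76). The other gene that was higher was CHAC1, which degrades glutathione, at a mean under 5 (0.45), a call lost without M_ICN+ replicate 3 or ICN+ replicate 1 (adjusted p up to 0.082).

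Pathway genes outside the list followed in the same direction for tRNA charging. Of 17 synthetases 12 were lower and 1 higher in M_ICN- against M-, and 10 lower and 1 higher in ICN- against M-. Of 10 p53 targets, 9 were higher and 1 lower in ICN- against M-, led by CDKN1A (2.38), ZMAT3 (2.04) and TNFRSF10B (1.74), and 8 higher and 0 lower in M_ICN- against M-. SESN1, a sestrin outside the list, was higher by 1.49 and 1.38, where SESN2 of the list was lower. The part of p53 in these differences was not tested.

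**Figure D4:**
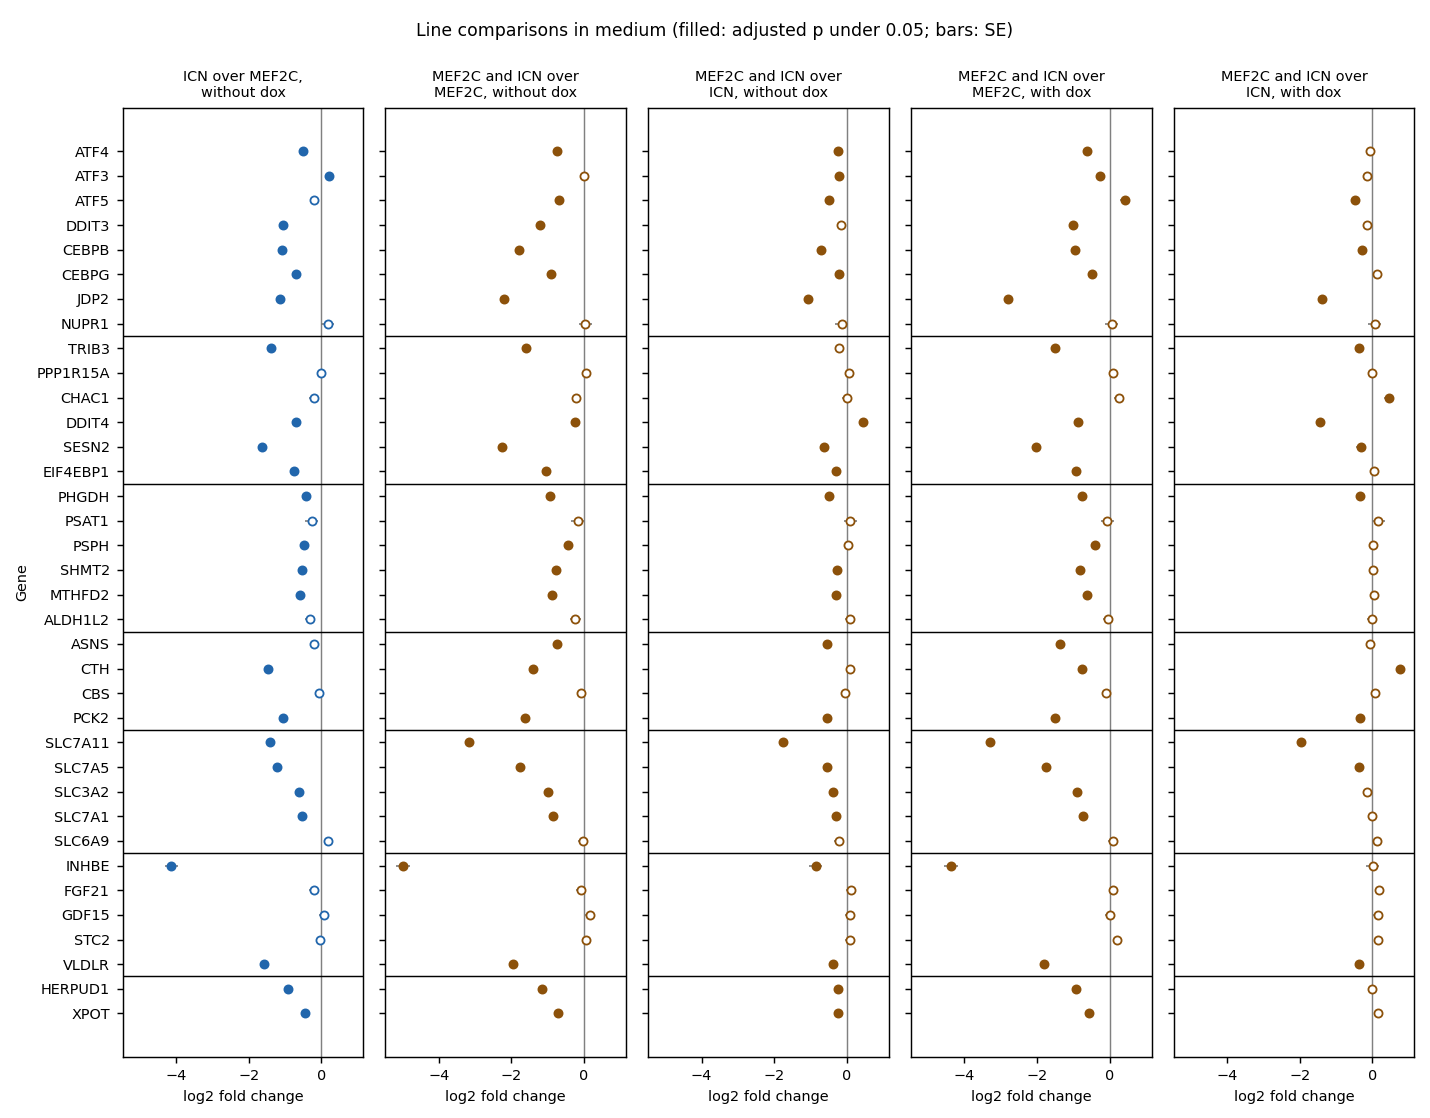
Log2 fold change ± SE of the 36 genes in the 5 comparisons between lines in medium, genes on the vertical axis and filled points for an adjusted p under 0.05. In the 3 comparisons against the MEF2C line 23, 25 and 25 genes lie at a fall past the threshold, with INHBE furthest left and its lower groups near the bottom of the scale.

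What induction of MEF2C did to these genes was asked in 3 cultures. In medium 12 genes fell and 1 rose, against 3.58% of all genes lower and 5.03% higher, with a median of -0.17. On OP9-GFP 6 fell and 4 rose, against 4.58% lower and 3.03% higher, with a median of -0.02, and on OP9-DL1 1 fell and 3 rose, against 3.33% lower and 2.57% higher, with a median of -0.01. In medium DDIT4, ATF5, TRIB3 and CEBPB fell by 0.50 or more, and in each coculture DDIT4 alone did. The counts on stroma rested on single arrays. On OP9-GFP the 10 calls became 6 without M_GFP- replicate 2, 5 without M_GFP+ replicate 2 and 6 without M_GFP+ replicate 3, and on OP9-DL1 the 4 calls became 2 without M_DL1+ replicate 1. A fit on the 6 arrays of each culture alone called 8 genes in medium, 0 with OP9-GFP and 3 with OP9-DL1.

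DDIT4 fell in all 3 cultures. It had 9.75, 9.56 and 9.49 in M+ against 10.48, 10.47 and 10.55 in M- (change -0.90, adjusted p = 2.4e-08). On OP9-GFP it had 8.53, 8.47 and 8.57 in M_GFP+ against 9.22, 8.85 and 9.18 in M_GFP- (change -0.56, adjusted p = 5.0e-05), and on OP9-DL1 8.80, 8.85 and 8.82 in M_DL1+ against 9.71, 9.71 and 9.68 in M_DL1- (change -0.87, adjusted p = 5.5e-08). The dox and no-dox arrays did not overlap in any of the 3. ATF3 fell in medium, 8.58, 8.56 and 8.57 in M+ against 8.89, 8.97 and 8.91 in M- (-0.36), and on OP9-GFP (-0.32), with -0.15 on OP9-DL1, which did not pass. TRIB3 had 9.24, 9.08 and 9.14 in M+ against 9.63, 9.81 and 9.76 in M- and changes of -0.58 in medium, -0.25 with OP9-GFP and -0.25 with OP9-DL1. The fall in medium passed without any 1 of its arrays. That on OP9-GFP was lost without any 1 array other than M_GFP+ replicate 1 (adjusted p up to 0.17), and the difference on OP9-DL1 did not pass (adjusted p = 0.056).

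Other falls in medium were those of ATF5, with 7.25, 7.18 and 6.96 in M+ against 7.52, 7.87 and 7.98 in M- (-0.66), CEBPB, with 10.42, 10.39 and 10.47 in M+ against 10.89, 10.94 and 10.97 in M- (-0.50), and JDP2, with 8.62, 8.46 and 8.32 in M+ against 8.91, 8.98 and 8.84 in M- (-0.44). PCK2 had 8.90, 8.97 and 8.85 in M+ against 9.18, 9.34 and 9.48 in M- and fell by 0.42, and SLC7A5 had 9.36, 9.31 and 9.23 in M+ against 9.49, 9.59 and 9.83 in M- and fell by 0.33. In these 5 genes the M+ arrays lay below the M- arrays. The SLC7A5 call was lost without M- replicate 3 or M+ replicate 3 (adjusted p up to 0.083). On OP9-GFP SLC7A5 fell by 0.42, while DDIT3 and CEBPB fell by 0.30 and 0.19 in calls that were lost without any 1 array other than M_GFP+ replicate 1 for DDIT3 and M_GFP- replicate 3 for CEBPB (adjusted p up to 0.19). In medium DDIT3, CEBPG, EIF4EBP1 and SLC7A11 fell by 0.25 to 0.36. The DDIT3 call was lost without M+ replicate 2, that of CEBPG without M- replicate 2, M- replicate 3 or M+ replicate 2, that of EIF4EBP1 without M- replicate 1 or 3 or M+ replicate 2 or 3, and that of SLC7A11 without any 1 of the 6 arrays (adjusted p up to 0.19).

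Of the 4 other amino acid enzymes, MEF2C in medium gave 1 rise and 1 fall, with OP9-GFP 1 rise and 0 falls, and with OP9-DL1 2 rises and 0 falls. Of the 5 transporters it gave 2 falls and 0 rises in medium, 1 rise and 1 fall with OP9-GFP, and 1 rise and 0 falls with OP9-DL1. Of the 6 serine and one-carbon enzymes 1 rose, with OP9-GFP, and 0 fell in any culture. ASNS had 6.98, 7.0 and 7.07 in M+ against 6.31, 6.48 and 6.66 in M- (0.53, adjusted p = 0.0014) and 5.83, 5.66 and 5.54 in M_DL1+ against 5.21, 5.26 and 5.21 in M_DL1- (0.45, adjusted p = 0.0097), the second call being lost without M_DL1+ replicate 1 (adjusted p = 0.086). On OP9-GFP its change was 0.27, which did not pass. CTH rose on stroma, with 7.20, 7.17 and 7.22 in M_GFP+ against 6.72, 6.92 and 6.50 in M_GFP- (0.49) and 7.11, 7.05 and 6.98 in M_DL1+ against 6.46, 6.90 and 6.60 in M_DL1- (0.40), and had 0.01 in medium. The rise on OP9-DL1 was lost without M_DL1- replicate 1 or 3 or M_DL1+ replicate 1 or 2 (adjusted p up to 0.17). SLC7A11 rose on OP9-DL1, 7.37, 7.30 and 7.26 in M_DL1+ against 6.79, 6.82 and 6.82 in M_DL1- (0.50, adjusted p = 0.00048), and on OP9-GFP by 0.30, a call lost without M_GFP- replicate 3 or any 1 of the M_GFP+ arrays (adjusted p up to 0.24). It fell in medium and rose on stroma, and the difference of induction, OP9-GFP minus medium, was 0.60 (adjusted p = 0.022), lost without M- replicate 3, M+ replicate 1, M_GFP+ replicate 1 or M_GFP+ replicate 2 (adjusted p up to 0.075). It was the 1 gene of 36 to pass that difference, none being lower, against 0.101% of all genes higher and 0.389% lower. The list median of that difference was 0.22, against -0.02 over all genes, and 31 of 36 genes lay above 0. At an unadjusted p under 0.05 limma gave 15 genes, both directions counted. PHGDH and ATF4 also rose on OP9-GFP, by 0.38 and 0.21, and the ATF4 call was lost without M_GFP- replicate 2, M_GFP+ replicate 1 or M_GFP+ replicate 2.

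Taken over the 9 arrays with dox and the 9 without, as the study's methods do, 0 of 36 genes rose and 0 fell by limma, against 3.4% of all genes higher and 3.79% lower. At an unadjusted p under 0.05 limma gave 2 genes, DDIT4 (-0.78, adjusted p = 0.060) and ATF5 (-0.39, adjusted p = 0.16), and the methods' t-test gave 2 before adjustment and 0 after it. Differences between the cultures count as spread in this fit. With the culture as a covariate 12 genes passed: DDIT4, ATF3, ATF5, DDIT3, CEBPB, JDP2, TRIB3, PCK2 and SLC7A5 fell and ASNS, CTH and PHGDH rose, against 7.48% of all genes lower and 7.26% higher in that fit. The largest of these were DDIT4 at -0.78 (SE 0.06, adjusted p = 2.2e-08) and ASNS at 0.42 (SE 0.06, adjusted p = 3.1e-05). Between OP9-DL1 and OP9-GFP the effect of induction differed in 0 of 36 genes by limma, against 0.0556% of all genes higher and 0.0759% lower. At an unadjusted p under 0.05 there were 4 genes, DDIT3, CEBPG, DDIT4 and CBS.

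GLDC and ERN1, outside the list, rose with MEF2C by more than any listed gene did in each of the 3 cultures. GLDC, the glycine decarboxylase, rose by 2.47 in medium, 2.45 with OP9-GFP and 0.99 with OP9-DL1 (adjusted p = 8.1e-14, 1.3e-13 and 2.3e-06). ERN1 (IRE1), the sensor that splices XBP1, rose by 1.94, 0.96 and 1.30, and ATF6, the sensor of another arm, rose by 0.89, 0.83 and 0.84. The lists around them did not move as a whole: of 18 genes of the ATF6 and XBP1 arms, ERN1 and ATF6 were the 2 that rose in medium, and XBP1 was the 1 that fell (-0.28). Of the 17 eIF2 kinase, eIF2 and eIF2B genes 1 rose in medium, EIF2AK3 (PERK, 0.25), and 0 fell. Of the 17 synthetases 0 rose and 1 fell, AARS1 (-0.20). LOUCY markers moved with induction, 6 of 9 falling in medium, 5 with OP9-GFP and 8 with OP9-DL1, with 0 rising, MEF2C by its brightest probe set among them, and their part in the changes above was not tested.

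**Figure D5:**
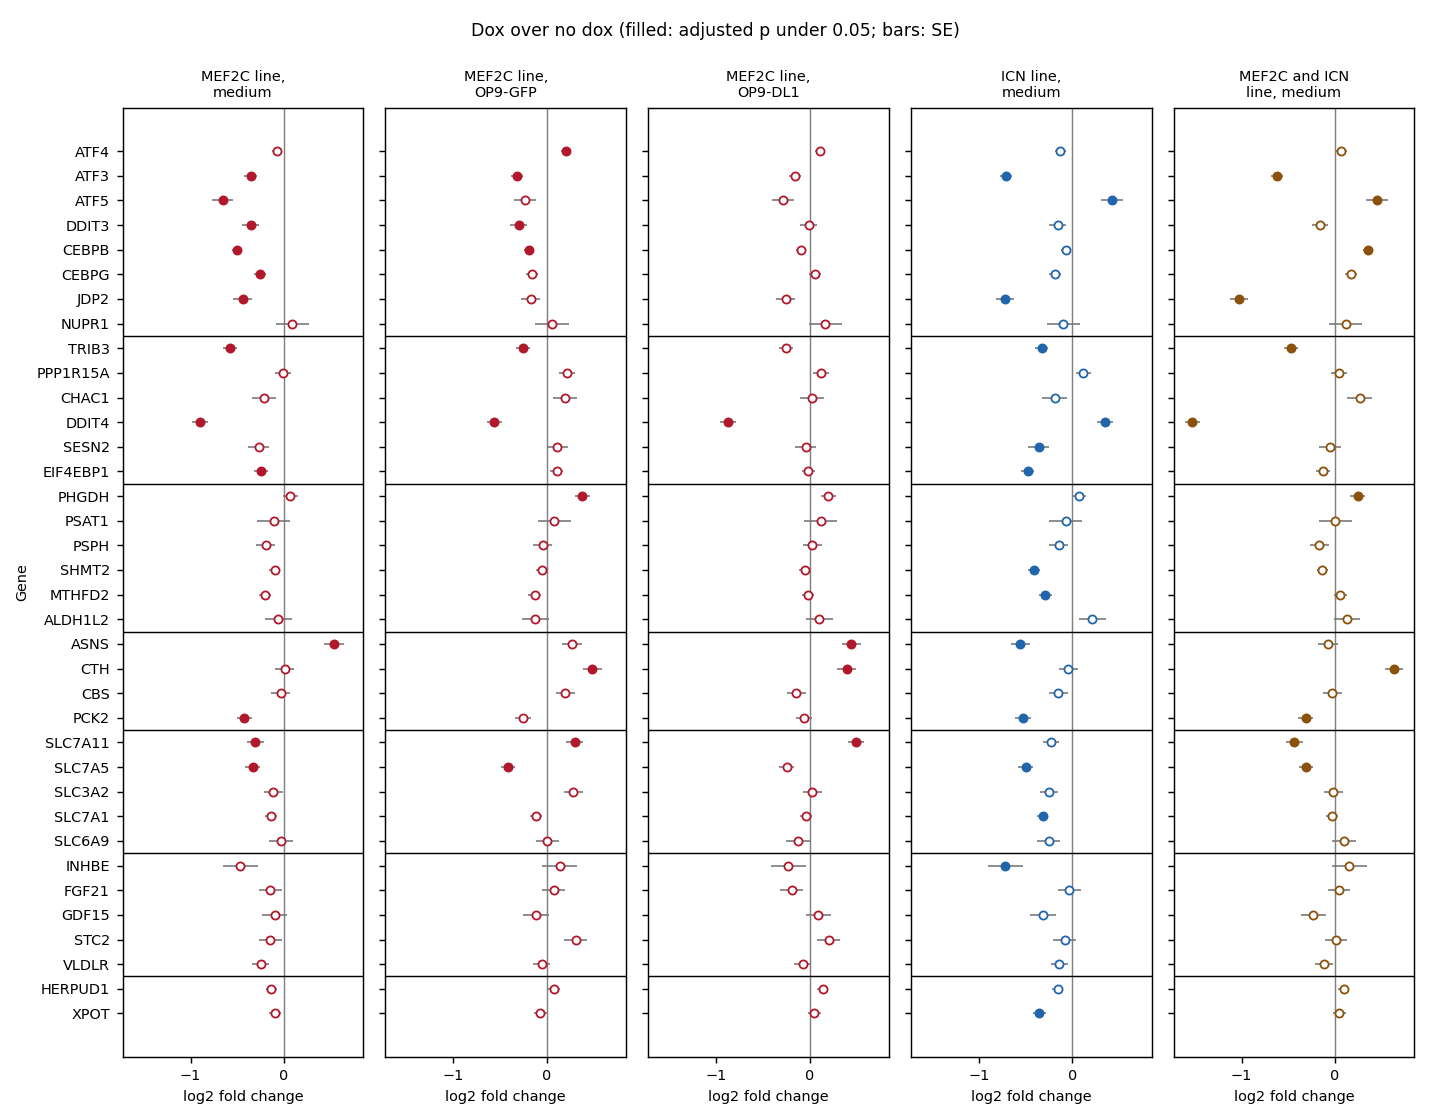
Log2 fold change ± SE with dox over no dox for the 36 genes in the 5 inductions, genes on the vertical axis and filled points for an adjusted p under 0.05. DDIT4 lies below 0 in the 3 MEF2C panels and in the panel of both constructs, down to -1.53, and above 0 in the ICN panel at 0.35.

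With induction of ICN 13 genes fell and 2 rose, against 9.42% of all genes lower and 6.44% higher, with a median of -0.19. HES1 was high before dox and rose by 0.40, with a mean level of 10.59 in ICN+ and 10.19 in ICN-. ATF3 had 8.46, 8.47 and 8.40 in ICN+ against 9.15, 9.22 and 9.08 in ICN- (-0.71, adjusted p = 1.1e-08), and JDP2 had 7.11, 6.96 and 7.09 in ICN+ against 7.80, 7.78 and 7.75 in ICN- (-0.72, adjusted p = 5.5e-06). ASNS had 5.94, 5.59 and 5.64 in ICN+ against 6.38, 6.24 and 6.22 in ICN- (-0.55). PCK2 had 7.85, 7.69 and 7.68 in ICN+ against 8.40, 8.16 and 8.23 in ICN- (-0.53), SLC7A5 had 8.01, 7.85 and 7.89 in ICN+ against 8.51, 8.40 and 8.34 in ICN- (-0.50), and EIF4EBP1 had 9.22, 9.27 and 9.32 in ICN+ against 9.78, 9.69 and 9.77 in ICN- (-0.48). SHMT2, MTHFD2, XPOT, SLC7A1 and TRIB3 fell by 0.29 to 0.41. INHBE had 2.70, 2.81 and 2.55 in ICN+ against 3.67, 2.81 and 3.73 in ICN- (-0.72), groups that overlap and that both lie near the bottom of the scale. Its call was lost without ICN- replicate 1, ICN- replicate 3 or ICN+ replicate 3 (adjusted p up to 0.086), it is not read as a change, and 12 falls are left without it. SESN2 (-0.36) was lost without ICN- replicate 2, ICN- replicate 3 or ICN+ replicate 1 (adjusted p up to 0.23).

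The 2 genes that rose were DDIT4, with 10.03, 10.19 and 10.24 in ICN+ against 9.68, 9.88 and 9.86 in ICN- (0.35, adjusted p = 0.0047), and ATF5, with 7.90, 8.09 and 8.03 in ICN+ against 7.61, 7.61 and 7.53 in ICN- (0.42, adjusted p = 0.015). The ATF5 call was lost without ICN- replicate 3 or ICN+ replicate 2 (adjusted p up to 0.066). Of 17 synthetases 7 fell and 1 rose with ICN, the largest falls being those of VARS1 (-0.57) and WARS1 (-0.36) and the 1 rise that of KARS1 (0.49). Of 11 folate and methionine cycle genes 4 fell, led by AHCY (-0.42). LOUCY markers moved in both directions with ICN, 4 of 9 rising and 4 falling, and of 10 p53 targets 2 rose and 1 fell. Their part in the changes above was not tested.

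With induction of MEF2C and ICN together 7 genes fell and 4 rose, against 10.9% of all genes lower and 5.84% higher, with a median of -0.01. The largest change in any of the 5 inductions was that of DDIT4, with 8.71, 8.74 and 8.71 in M_ICN+ against 10.25, 10.17 and 10.32 in M_ICN- (-1.53, adjusted p = 1.8e-13). JDP2 had 5.62, 5.67 and 5.72 in M_ICN+ against 6.46, 6.71 and 6.94 in M_ICN- (-1.03), and ATF3 had 8.23, 8.30 and 8.39 in M_ICN+ against 8.95, 8.83 and 9.01 in M_ICN- (-0.62). TRIB3 (-0.47), SLC7A11 (-0.43), PCK2 (-0.32) and SLC7A5 (-0.31) were the other falls. CTH rose, with 8.31, 8.06 and 8.07 in M_ICN+ against 7.50, 7.60 and 7.44 in M_ICN- (0.63, adjusted p = 3.4e-05). ATF5 had 7.60, 7.61 and 7.43 in M_ICN+ against 7.24, 6.93 and 7.11 in M_ICN- (0.45), and CEBPB had 9.51, 9.47 and 9.45 in M_ICN+ against 9.08, 9.09 and 9.21 in M_ICN- (0.35). PHGDH rose by 0.24, a call lost without any 1 of the 6 arrays (adjusted p up to 0.14), ATF5 was lost without M_ICN- replicate 2 (adjusted p = 0.065) and PCK2 without M_ICN+ replicate 3 (adjusted p = 0.083). Of the LOUCY markers 1 rose and 4 fell, and of 10 p53 targets 4 rose and 2 fell. The part of either list in these changes was not tested.

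Whether the inductions differ was tested as a difference of effects. Induction of both proteins minus that of ICN was higher in 9 genes and lower in 1, against 4.06% of all genes higher and 6.08% lower, with a median of 0.19. INHBE, 1 of the 9, lay near the bottom of the scale in all 4 groups. The 1 lower gene was DDIT4, with -1.88 (adjusted p = 1.1e-11), since it rose with ICN and fell with both. CTH (0.67), CEBPB (0.42), XPOT (0.40) and CEBPG (0.36) were higher. The 10 calls became 6 without M_ICN+ replicate 1, ICN- replicate 1 or ICN- replicate 3, and 5 without M_ICN+ replicate 2. Induction of both minus that of MEF2C in medium was higher in 4 genes and lower in 3, against 2.94% of all genes higher and 7.53% lower. ATF5 (1.11, adjusted p = 3.0e-05) and CEBPB (0.85, adjusted p = 5.1e-09) changed sign between the 2 inductions, falling with MEF2C and rising with both. DDIT4 (-0.63) and JDP2 (-0.58) fell more with both, and ASNS, which rose with MEF2C, did not pass with both (difference -0.61). These 2 inductions are in different lines, whose levels differ without dox. CEBPB averaged 10.93 in M- and 9.13 in M_ICN-, and ATF5 7.79 in M- and 7.10 in M_ICN-. With dox CEBPB averaged 10.43 in M+ and 9.48 in M_ICN+. Line and construct cannot be told apart here.

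The remaining 10 genes of the list moved little. NUPR1, a stress-induced chromatin protein, ALDH1L2, the glycine transporter SLC6A9, the hormones FGF21 and GDF15, STC2, CHAC1 and PSAT1 had mean levels under 5, and CBS and PPP1R15A had means of 5.29 and 5.78. The means of the 10 conditions lay within 0.56 of each other for each of these genes. They held 3 calls in all 19 comparisons, those of PPP1R15A, STC2 and CHAC1 given above. A change in them was not detectable at this signal in the other comparisons, which does not show that they stayed the same.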

How the data were processed

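Total RNA of LOUCY cells was hybridised to 30 Affymetrix HG U133 Plus 2.0 arrays. The authors deposited log2 values after RMA (affy 1.64.0 in R 3.6.3, per the submitters' processing notes), which corrects background, normalizes quantiles over all arrays and summarises probes, so shifts shared by all genes are removed. Values ran from 1.40 to 13.99 and array medians from 4.76 to 4.84. The precision rests on 3 arrays per condition.

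Of 54675 probe sets, 62 controls were left out. GEO's platform annotation gave 1 symbol for 41097 probe sets, several for 1801 and none here for 11777. The member genes, gene lists and tests were chosen with earlier results of these data known. Values of each array are given for the 12 genes with the largest called change in any of 5 inductions, for the gene of highest mean level in each of 7 roles, and for ATF4. For other pathway lists up to 3 genes are named, those of largest called change. Tests were made in limma 3.58.1 (R 4.3.3) with Benjamini-Hochberg adjustment over 54613 probe sets and a threshold of 0.05. The pooled effect of MEF2C was fitted on 9 arrays with dox and 9 without, without covariates, as the methods of the study describe, and 18 other contrasts in 1 model over all 30 arrays. The code was tested on simulated data. Alternatives were a filter on a mean under 5, quantile normalization, median centring, a trended and robust prior, control probe sets kept, other choices of probe set, the study's criteria (log2 fold change beyond 0.6, p under 0.05 and q under 0.1), the methods' t-test, a replicate block, fits on the compared arrays alone, each array left out and, for the pooled effect, culture as a covariate or left out.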

Additional observations from a re-analysis of the deposited data

Results flagged for a closer look

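Checks for arrays far from the rest were run over the 9 arrays with dox and the 9 without for each of 36 genes. Their limit is set for 1 in 20 by chance among arrays of 1 population. Each set of 9 holds 3 cultures whose levels differ for many of these genes. That rate therefore does not hold here, and an array apart from its own culture can be missed. PPP1R15A stood apart in 1 array with dox, M_DL1+ replicate 3, at a log2 level of 5.96 against 5.81 in the next array. PSAT1 stood apart in M_GFP+ replicate 3, at 5.47 against 4.95 in the next array. No call of either gene given above compares these arrays.

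The effect of induction differed between conditions, by limma's test of the difference itself, for the genes that follow. For SLC7A11 the effect of MEF2C on OP9-GFP minus that in medium was 0.60 (adjusted p = 0.022). The effect of MEF2C and ICN together minus that of MEF2C in medium was 1.11 for ATF5, 0.85 for CEBPB, 0.43 for CEBPG, 0.62 for CTH, -0.58 for JDP2, -0.63 for DDIT4 and -0.61 for ASNS (limma, largest adjusted p = 0.0082). The MEF2C line and the line with both constructs also differ without dox, so line and construct cannot be told apart.

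The effect of MEF2C and ICN together minus that of ICN was -1.88 for DDIT4 (limma, adjusted p = 1.1e-11), and above 0 for 9 genes. These were 0.42 for CEBPB, 0.36 for CEBPG, 0.67 for CTH, 0.40 for XPOT, 0.34 for MTHFD2, 0.35 for EIF4EBP1, 0.48 for ASNS, 0.29 for SLC7A1 and 0.87 for INHBE. The INHBE value rests on levels near the bottom of the scale in all 4 groups and is not read as a difference. The ASNS and SLC7A1 differences were each lost without any 1 of 10 of the 12 arrays, and those of EIF4EBP1 and INHBE without any 1 of 9 (limma, adjusted p up to 0.14). The MTHFD2 difference was lost without M_ICN+ replicate 2, ICN- replicate 2 or ICN+ replicate 1. The line with both constructs and the ICN line also differ in level without dox, so line and construct cannot be told apart.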

How the results depend on the processing

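Of 239 calls of single genes over all comparisons, 197 were kept when each array was left out in turn and 42 were lost without at least 1 array. Over all alternatives 4143 values were recomputed, of which 3704 kept direction and call, 437 lost the call and 2 reversed. The reversed values were 0.046 for ATF3 in the line with both constructs against the ICN line without dox, with probe sets averaged, and -0.032 for SLC7A1 in the difference of induction between the same lines, with the probe set of largest SD. The falls on OP9-GFP against medium and in both ICN lines against the MEF2C line kept their counts within 1.5 times under every alternative run. Of the other probe sets of called genes, 13 of 20 passed in the same direction in ICN- against M-, and 15 of 22 in M_ICN- against M-. Fewer did in M_ICN- against ICN- (5 of 20), with ICN (6 of 17) and with both proteins (3 of 10). With MEF2C they were 3 of 11 in medium, 1 of 6 on OP9-GFP and 2 of 4 on OP9-DL1. In these comparisons 0 passed in the opposite direction.

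The replicate numbers did not pair the arrays, and with a replicate block 236 of 239 calls were kept and 3 lost, with no count of calls moved by over 1.5 times.

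Counts of genes called moved as follows, and the cause was not tested. For the pooled effect of MEF2C, 0 in the report, they were 1 with the filter on dim probe sets, 2 with probe sets averaged, 1 by the study's criteria, 12 with culture as a covariate, 8 without medium, 1 without OP9-GFP and 0 to 1 without single arrays. By the study's criteria, which ask for a larger change, MEF2C gave 2 in medium, 0 with OP9-GFP and 1 with OP9-DL1, ICN gave 3 and both together 4. The methods' t-test gave 3, 1 and 2 for MEF2C in the 3 cultures and 3 for ICN. Fits on the compared arrays alone gave 8 for MEF2C in medium, 0 on OP9-GFP and 8 for ICN. Without single arrays the counts were 5 to 9 on OP9-GFP and 2 to 4 on OP9-DL1. OP9-DL1 against OP9-GFP without dox gave 1 by the study's criteria and 0 by the methods' t-test and in the fit alone. With dox it gave 2 with the filter, the trended prior or the probe set of largest SD, and 0 with probe sets averaged, the study's criteria or the t-test. The line with both constructs against the ICN line gave 5 without dox and 4 with dox by the study's criteria, 8 and 7 by the t-test, and 13 without dox in the fit alone. For the difference of MEF2C induction between OP9-GFP and medium they were 3 with the filter or the trended prior, 2 with quantile normalization or probe sets averaged, 0 with median centring or in the fit alone, and 0 to 2 without single arrays. For both constructs minus ICN they were 5 with median centring, 3 by the study's criteria, 5 in the fit alone and 5 to 8 without single arrays.

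Arrays give no count of molecules, so precision is limited by their number, and 9 of the 36 genes have a mean under 5.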
